A study of Rattus norvegicus with 7 samples.

Results

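Cytosolic ribosomal protein genes encode the protein part of the 60S (Rpl genes) and 40S (Rps genes) subunits of the ribosome that translates nuclear mRNAs. They were taken here as the protein-coding rows of the series table whose symbol starts with Rpl or Rps and a digit, or is Rplp0, Rplp1, Rplp2 or Rpsa. The Rps6k kinases, and symbols that contain "-ps", were left out. The rule found 95 rows of 17141, with 80 distinct symbols. Of the 77 standard symbols of this kind 68 were present, 42 of the large and 26 of the small subunit, and Rpl10, Rpl21, Rpl22, Rpl36a, Rps9, Rps12, Rps13, Rps21 and Rps26 were not analysed here. The other 12 symbols are additional gene copies such as Rpl3l and Rps27l, and Rps19bp1, which the rule takes in by its name but which encodes a partner of Rps19 and not a ribosomal protein. A mean of at least 1 RPKM (reads scaled to gene length and to the size of the library) over the libraries was reached by 89 rows, and a mean of at least 10 RPKM by 83 rows.

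The cells were ventricular cardiomyocytes of newborn wild-type Wistar rats (postnatal day 0), taken as the fraction that did not attach during pre-plating, so that other heart cells can remain. Each culture received 1 synthetic miRNA at 25 nM, and polyadenylated RNA was sequenced 72 h later. The 7 libraries were miR-302d-3p, miR-373-3p, miR-1825, miR-33b*, miR-590-3p, miR-199a-3p and the control, cel-miR-67, a nematode miRNA that is the denominator of the deposited ratios. The study asked what these miRNAs, which promote cardiomyocyte proliferation, share. Every group was 1 library, so no difference below has a replicate check and no test was made. All 6 comparisons have the same control library, and an unusual level there enters each of them.

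Each ribosome needs 1 copy of nearly every ribosomal protein, so their mRNAs are abundant in most cells. They belong to the TOP mRNAs, which begin with a C followed by a run of pyrimidines (C or T in the DNA), and whose translation is raised by the kinase mTORC1 and held back by Larp1 when mTORC1 is inactive. In the heart, ribosome production is known to rise with growth of the muscle cells. The present values are mRNA levels and say nothing of translation.

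Pyrimidine runs near the annotated start were looked up for 10 of the 83 rows with a mean of at least 10 RPKM. These are the 5 with the highest and the 5 with the lowest mean change over the 6 miRNA libraries. RefSeq's table of promoters (build GRCr8) had 61 of the 80 symbols, with 62 entries, and 9 of those 10 genes. Each sequence below holds the 60 bases before the annotated transcription start and the 20 bases from it onwards, and the capitals mark the longest run of C or T that touches the 10 bases on either side of the start. The first 5 are the genes with the highest mean change among these 83 rows, the last 4 those with the lowest. Rpl39 is among the lowest through its 153-base row only. Its 324-base row had a mean change of -0.068 and is not one of the 5 lowest. Which of its rows the promoter under this symbol belongs to was not checked.
Rpl18 (chr1:105325210-105325289, plus strand): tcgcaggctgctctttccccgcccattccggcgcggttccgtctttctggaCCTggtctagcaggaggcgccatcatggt
Rpl13a (chr1:104748894-104748973, minus strand): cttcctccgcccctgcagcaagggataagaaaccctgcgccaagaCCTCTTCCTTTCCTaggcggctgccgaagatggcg
Rps27l (chr8:76443598-76443677, plus strand): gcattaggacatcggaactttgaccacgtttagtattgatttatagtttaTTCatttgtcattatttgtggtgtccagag
Rpl36 (chr9:1533720-1533799, plus strand): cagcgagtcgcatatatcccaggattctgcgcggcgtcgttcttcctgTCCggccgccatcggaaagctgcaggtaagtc
Rpl24 (chr11:58128386-58128465, minus strand): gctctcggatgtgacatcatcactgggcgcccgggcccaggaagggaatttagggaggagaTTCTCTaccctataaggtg
Rps27 (chr2:177964587-177964666, minus strand): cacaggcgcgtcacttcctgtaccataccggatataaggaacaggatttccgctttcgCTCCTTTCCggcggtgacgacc
Rpl41 (chr7:1563478-1563557, minus strand): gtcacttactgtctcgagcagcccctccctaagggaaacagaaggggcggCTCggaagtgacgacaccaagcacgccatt
Rpl39 (chrX:121195877-121195956, minus strand): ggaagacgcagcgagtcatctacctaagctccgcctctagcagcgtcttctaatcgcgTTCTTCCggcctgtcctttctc
Rps10 (chr20:5700725-5700804, minus strand): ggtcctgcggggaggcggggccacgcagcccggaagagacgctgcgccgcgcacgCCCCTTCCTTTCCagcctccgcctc
The run is 14 letters long in Rpl13a, 13 in Rps10, 9 in Rps27, 7 in Rpl39 and 6 in Rpl24. It has 3 letters in Rpl18, Rps27l, Rpl36 and Rpl41. In Rpl13a, Rpl18, Rps27l, Rpl36 and Rpl41 the run ends before the annotated start and so lies outside the annotated transcript. Long and short runs therefore stand at both ends of the order.

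Over all matched entries, a run of at least 6 pyrimidines lay in or reached into the 10 bases on either side of the start in 45 of 62 (72.6%), against 28.3% of the 33469 promoters of the table. A run counted in this way can end before the start, as in Rpl13a, and is then not part of the annotated transcript. A run of at least 10, placed in the same way, was found in 50% of the entries and 6.56% of all promoters, and the median run was 9.5 and 4 letters. The motif CTTTCC lay within 10 bases of the start on the sense strand in 13 of 62 entries (21.0%) against 0.774% of all promoters, and on the opposite strand in 1.61% against 0.822%. In the full window of 250 bases before to 50 after the start, searched on both strands, CCGGAAG was in 32.3% of entries against 8.75% of all promoters, and GGGCGG in 59.7% against 33.1%. TATAAA was in 12.9% against 14.2% and CACGTG in 8.06% against 6.42%. The 43 symbols with a run of at least 6 letters had a median log2 change of 0.13 in miR-302d-3p, 0.22 in miR-373-3p, 0.21 in miR-1825, 0.17 in miR-33b*, 0.00 in miR-590-3p and -0.14 in miR-199a-3p. For the 14 symbols with a shorter run the medians were 0.21, 0.23, 0.15, 0.10, 0.00 and -0.06 in the same order. The median was thus higher for the longer runs in miR-1825, miR-33b* and lower in miR-199a-3p, miR-302d-3p and miR-373-3p.

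Ribosomal protein mRNAs were among the most abundant transcripts of every library. The median level of the 83 rows with a mean of at least 10 RPKM was 266 RPKM in cel-miR-67 and between 243 RPKM (miR-199a-3p) and 341 RPKM (miR-373-3p) in the others. The median protein-coding gene stood at 8.2 RPKM in cel-miR-67. Between 27 and 31 members were among the 100 highest of 15195 protein-coding genes outside the mitochondrial genome, and 45 to 48 were among the 200 highest. The order of levels was led by Rps2, a protein of the 40S mRNA entry site, at a mean of 1146 RPKM over the 7 libraries. It was followed by the stalk protein gene Rplp1 (933 RPKM), Rpl13a (918 RPKM), the stalk base gene Rplp0 (903 RPKM) and Rpsa (739 RPKM), whose protein is also known as a laminin receptor. The lowest rows were Rpl3l at a mean of 0.118 RPKM, Rps27l3 at 0.296 RPKM, one of the 171-base rows of Rps29 at 0.348 RPKM, the 321-base row of Rpl36al at 0.452 RPKM and the 303-base row of Rps29 at 0.589 RPKM. Levels per length depend on the gene model: Rpl11 stood at 67.1 RPKM in cel-miR-67 with 6645 reads over a length of 4366 bases, and its partner Rpl5 at 490 RPKM with 11884 reads over 1069 bases.

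Some rows share their reads. The 9 symbols with several rows make up 24 of the 95 rows. Both rows of Rpl7a, each 798 bases long, had 6099 and 6090 reads in cel-miR-67 and differed by at most 17 reads in any library. The pair of 333-base rows of Rpl35a with the most reads differed by at most 12 reads (513 and 509 reads in cel-miR-67), and the 324-base and 156-base rows of Rpl39 by at most 26 (505 and 486 reads). Such rows have nearly the same reads and cannot be told apart here. Their sequences and positions were not compared, and they are counted as separate rows below. Some rows left out for their symbol were also abundant, and whether they share reads with members was not tested. In cel-miR-67 Rps27a-ps1 stood at 571 RPKM (7062 reads), Rps27a at 566 RPKM (6047 reads) and Rpl26-ps2 at 164 RPKM. In miR-33b* Rps27a-ps1 had 8598 reads and Rps27a 6416, so their reads were not near-equal as in the rows above.

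The share of a library's reads that fell in ribosomal protein genes does not depend on how libraries were scaled. It was 1.73% of all listed reads in cel-miR-67 and 2.32% in miR-302d-3p, 2.30% in miR-373-3p, 2.19% in miR-1825, 2.08% in miR-33b*, 1.77% in miR-590-3p and 2.04% in miR-199a-3p. All 6 miRNA libraries were therefore above the control. Transcripts of the mitochondrial genome took 41.0% of reads in cel-miR-67, 30.6% in miR-302d-3p, 33.2% in miR-373-3p, 35.5% in miR-1825, 37.9% in miR-33b*, 41.4% in miR-590-3p and 27.7% in miR-199a-3p. With these left out of the total, the share was 2.93% (95% exact binomial interval 2.92% to 2.94%, counting error only) in cel-miR-67. It was then 3.34% in miR-302d-3p, 3.45% in miR-373-3p, 3.40% in miR-1825, 3.35% in miR-33b*, 3.02% in miR-590-3p and 2.83% in miR-199a-3p. The miR-199a-3p library thus moved from above to below the control when mitochondrial reads were left out. The other 5 libraries were above it both ways, and none of the intervals in these libraries reached that of cel-miR-67. PCR copies are not independent molecules, so the intervals are too narrow.

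**Figure D1:**
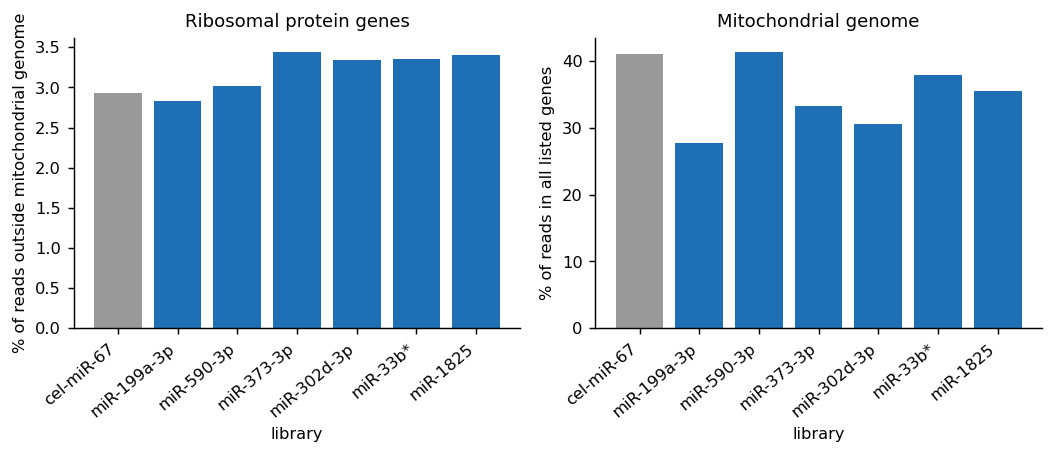
Share of reads per library, 1 bar for each library and the control in grey. Left, ribosomal protein genes as a percentage of reads outside the mitochondrial genome (2.93% in cel-miR-67, 3.34% to 3.45% in miR-302d-3p, miR-373-3p, miR-1825 and miR-33b*); right, the mitochondrial genome as a percentage of all listed reads.

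Against cel-miR-67, most members were slightly higher in miR-302d-3p and miR-373-3p, in a smaller majority higher in miR-1825 and miR-33b*, almost evenly split in miR-590-3p and mostly lower in miR-199a-3p. Changes are log2((RPKM + 1)/(cel-miR-67 RPKM + 1)) over the 89 rows with a mean of at least 1 RPKM. The median was 0.16 in miR-302d-3p, 0.22 in miR-373-3p, 0.16 in miR-1825, 0.11 in miR-33b*, -0.01 in miR-590-3p and -0.14 in miR-199a-3p. The median over all 12330 genes with such a mean lay between -0.00 and 0.02 in each library. In miR-373-3p 85 rows were above the control and 4 below, against 50.9% and 49.1% of all genes. In miR-302d-3p 77 were above and 12 below, against 52% and 48%. In miR-33b* 68 were above and 21 below (49.5% and 50.5% of all genes), and in miR-1825 66 and 23 (50.5% and 49.5%). In miR-590-3p 41 were above and 48 below (49.7% and 50.2% of all genes). In miR-199a-3p 17 were above and 72 below (49.7% and 50.3%).

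These shifts rest on the scaling of the deposited values, which sets the median gene near 0. With library size taken as the sum of all listed reads, the median of the members was 0.41 in miR-302d-3p, 0.41 in miR-373-3p, 0.29 in miR-1825, 0.22 in miR-33b* and 0.21 in miR-199a-3p, so that miR-199a-3p changed sign, and all genes shifted too. Relative to the median of all genes, the members' median as deposited was higher by 0.14 in miR-302d-3p, 0.21 in miR-373-3p, 0.15 in miR-1825 and 0.11 in miR-33b* and was at -0.13 in miR-199a-3p. It remained lower in miR-199a-3p, and higher in those 4 libraries, under every scaling tried.

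**Figure D2:**
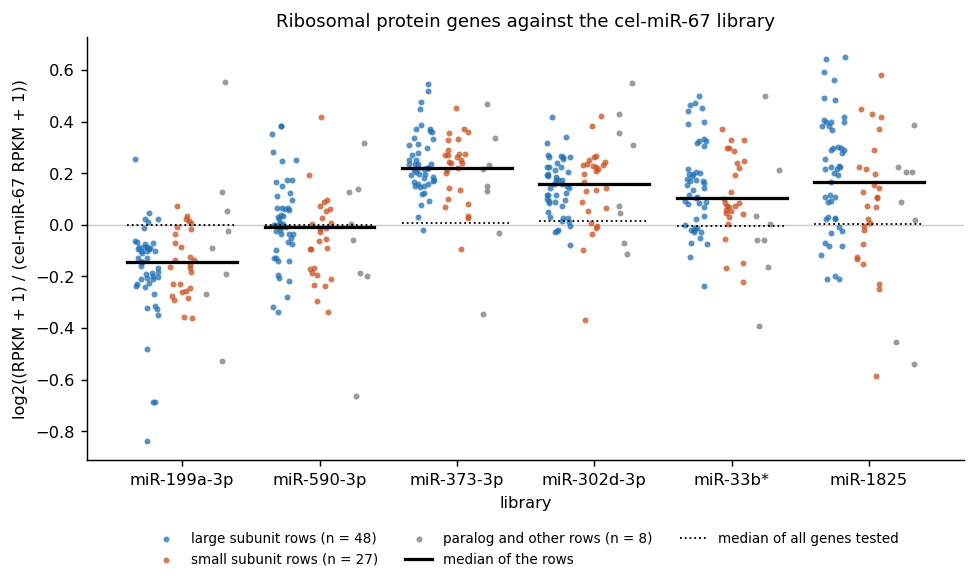
Change of each of the 83 rows with a mean of at least 10 RPKM (points, coloured by subunit and jittered sideways) as log2((RPKM + 1)/(cel-miR-67 RPKM + 1)) in each miRNA library, with the median of the rows (thick line) and of all genes tested (dotted line). In miR-373-3p 79 of the 83 points lie above 0, and in miR-199a-3p 70 lie below 0.

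Few single members changed much. Higher by 25% or more were 9 rows in miR-302d-3p (16.2% of all genes passed this), 22 in miR-373-3p (14.2%), 22 in miR-1825 (15.5%), 17 in miR-33b* (14.3%), 6 in miR-590-3p (12.4%) and 2 in miR-199a-3p (13.5%). Lower by 20% or more were 1 row in miR-302d-3p (16.9% of all genes), 1 in miR-373-3p (16.1%), 4 in miR-1825 (16.3%), 1 in miR-33b* (15.6%), 3 in miR-590-3p (11.4%) and 10 in miR-199a-3p (15.1%). Each limit is the same distance on the log2 scale. Only the counts for higher rows in miR-373-3p, miR-1825 and, by a little, miR-33b* were above the background share. At least 1.5-fold higher were 0 rows in miR-302d-3p (5.11% of all genes), 2 in miR-373-3p (4.83%), 3 in miR-1825 (5.94%), 2 in miR-33b* (5.17%), 1 in miR-590-3p (4.7%) and 1 in miR-199a-3p (4.81%). At least 1.5-fold lower were 3 rows in miR-199a-3p (5.55% of all genes), 1 in miR-590-3p (3.49%) and 0 in miR-302d-3p (7.32%), miR-373-3p (6.56%), miR-1825 (6.33%) and miR-33b* (5.52%). The higher row in miR-199a-3p was Rpl38, a 60S protein gene with a short and low row here. It had 5 reads in cel-miR-67 and 18 reads in miR-199a-3p, and its fold of 3.02 has a counting interval from 1.08 to 10.4.

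Read counting error was small beside these changes for abundant members. Over the 83 rows the median half-width of the 95% exact interval of the fold was 0.05 to 0.06 on the log2 scale. The interval lay wholly above 1 for 71 rows and below 1 for 1 row in miR-373-3p, and for 56 and 2 rows in miR-302d-3p. In miR-199a-3p it lay above 1 for 5 rows and below 1 for 58. The counts were 49 and 12 in miR-1825, 50 and 7 in miR-33b*, and 27 and 24 in miR-590-3p. The share of all genes with such an interval is not given here, so these counts have no background beside them. Rows with many reads have narrow intervals, which small changes can pass. The intervals compare single libraries and hold no difference between cultures.

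In bulk RNA, a change in the number of cells of one type and a change in RNA per cell cannot be told apart. The 10 matched cardiomyocyte markers stood at 88.0 to 6838 RPKM in cel-miR-67 and summed to 16778 RPKM there and to between 12493 RPKM (miR-199a-3p) and 16269 RPKM (miR-302d-3p) in the others. Their median change was -0.19 in miR-302d-3p, -0.23 in miR-373-3p, -0.32 in miR-1825, -0.33 in miR-33b*, -0.44 in miR-590-3p and -0.41 in miR-199a-3p. The 9 fibroblast markers summed to 1407 RPKM in cel-miR-67 and 1088 to 1335 RPKM in the others, and the 5 smooth muscle markers to 746 RPKM and 758 to 1159 RPKM. Fibroblast marker medians were -0.39 in miR-302d-3p, -0.31 in miR-373-3p, -0.44 in miR-1825, -0.41 in miR-33b*, -0.39 in miR-590-3p and 0.07 in miR-199a-3p. For smooth muscle markers they were -0.26, -0.16, 0.24, 0.11, 0.22 and 0.56 in the same order. Members differed: in every miRNA library Postn and Tcf21 were below the control, and Lum and Cnn1 above it. Myh11 was above it only in miR-199a-3p. The matched endothelial, leukocyte and erythroid markers summed to at most 22.4, 13.5 and 13.1 RPKM in any library, and none was at 0 in cel-miR-67. The part of these differences in the ribosomal protein levels was not tested.

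The members moved more alike than other abundant genes, although the members include rows of lower level and rows that share reads. A low spread was not particular to them, as 2 other gene lists below show. The SD across the 83 rows of the log2 change was 0.14 in miR-302d-3p, 0.14 in miR-373-3p, 0.25 in miR-1825, 0.18 in miR-33b*, 0.18 in miR-590-3p and 0.19 in miR-199a-3p. With 1 row per symbol (78 symbols with a mean of at least 1 RPKM) it was 0.15, 0.15, 0.25, 0.18, 0.19 and 0.21. For the 36 rows of ribosome biogenesis it was 0.15, 0.14, 0.17, 0.17, 0.14 and 0.16 in the same order. For the 13 rows of the RNA polymerase I machinery it lay between 0.13 and 0.21. For the 429 other protein-coding genes outside the mitochondrial genome with a mean of at least 100 RPKM it was 0.51, 0.48, 0.45, 0.40, 0.36 and 0.44 in the same order. Within these limits around the set's own median change were 81, 81, 69, 74, 75 and 76 of the 83 rows, or 83.1% to 97.6%, against 63.4% to 73.2% of those other genes around theirs. This way of centring was chosen after seeing the data. Centred on the median level of the set in each library, 2 rows in miR-302d-3p, 6 in miR-373-3p, 18 in miR-1825, 7 in miR-33b*, 7 in miR-590-3p and 7 in miR-199a-3p lay past them. Between the libraries of miR-302d-3p and miR-373-3p, whose miRNAs have the same seed, the SD was 0.15 for the members and 0.16 for the other genes. The pair with the smallest spread of the members was cel-miR-67 and miR-373-3p (0.14), and the pair with the largest was miR-199a-3p and miR-1825 (0.29).

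Both subunits had like medians in most libraries. The 52 large subunit rows had a median change of 0.16 in miR-302d-3p, 0.22 in miR-373-3p, 0.22 in miR-1825, 0.16 in miR-33b*, 0.01 in miR-590-3p and -0.14 in miR-199a-3p. For the 27 small subunit rows the medians were 0.20, 0.24, 0.10, 0.09, -0.05 and -0.16 in the same order. The summed RPKM of large over small subunit genes, with 1 row for each symbol, was 1.30 in cel-miR-67 and lay between 1.28 and 1.31 in miR-302d-3p, miR-373-3p, miR-590-3p and miR-199a-3p. It was 1.37 in miR-33b* and 1.38 in miR-1825.

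Rpl5 and Rpl11 carry the 5S rRNA into the 60S subunit and, when assembly fails, bind Mdm2, the ligase that degrades p53. Rpl5 was at 490 RPKM in cel-miR-67, 561 in miR-302d-3p, 572 in miR-373-3p, 561 in miR-1825, 570 in miR-33b*, 458 in miR-590-3p and 494 in miR-199a-3p. Rpl11 was at 67.1 RPKM in cel-miR-67, 76.6 in miR-302d-3p, 79.3 in miR-373-3p, 61.7 in miR-1825, 65.8 in miR-33b*, 61.3 in miR-590-3p and 62.5 in miR-199a-3p. Both were above the control in miR-302d-3p and miR-373-3p, with changes of 0.19 to 0.24, and they parted in miR-33b* (0.22 and -0.03) and miR-1825 (0.19 and -0.12). Of the 8 genes of the p53 response to assembly faults, 4 were higher by at least 25% in miR-1825 (against 15.5% of all genes), with Cdkn1a, a cell cycle inhibitor, at 0.60 and Mdm2 itself at 0.49. Ccng1 was lowest, at -1.36 in miR-199a-3p.

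The stalk (Rplp0, Rplp1, Rplp2) and its neighbour Rpl12 bind the translation factors that use GTP. Rplp0 was at 919 RPKM in cel-miR-67, 986 in miR-302d-3p, 1032 in miR-373-3p, 915 in miR-1825, 875 in miR-33b*, 736 in miR-590-3p and 860 in miR-199a-3p. Its partner Rplp1 (496-base row) was at 852 RPKM in cel-miR-67, 897 in miR-302d-3p, 976 in miR-373-3p, 1124 in miR-1825, 1053 in miR-33b*, 892 in miR-590-3p and 738 in miR-199a-3p. Rplp0 was thus above Rplp1 in the control and below it in miR-590-3p, miR-33b* and miR-1825. The 345-base row of Rplp1 was also highest in miR-1825 (263 RPKM against 174 RPKM in cel-miR-67, a change of 0.59) and below the control only in miR-199a-3p. Rplp2 ranged from 79.98 RPKM (miR-199a-3p) to 122 RPKM (miR-373-3p) around 94.7 RPKM in cel-miR-67. Rpl12 was highest in miR-33b*, at 513 RPKM against 369 RPKM in cel-miR-67, a fold of 1.39 (counting interval 1.34 to 1.44).

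Among the proteins that line the exit tunnel or its rim, Rpl39 had the clearest difference in a single library. Its 324-base row was at 68.7 RPKM in cel-miR-67, 68.6 in miR-302d-3p, 78.8 in miR-373-3p, 65.4 in miR-1825, 78.0 in miR-33b*, 67.6 in miR-590-3p and 42.3 in miR-199a-3p. Only miR-199a-3p stood apart, with a log2 change of -0.69, or 371 reads against 505. The 156-base row shares these reads (change of -0.69), and the 153-base row, at 57.4 RPKM in cel-miR-67 and 31.6 RPKM in miR-199a-3p, had a change of -0.84. Rpl41, which encodes the shortest ribosomal protein, was also lowest in miR-199a-3p, at 374 RPKM against 522 RPKM in cel-miR-67 (change of -0.48), and ranged from 451 to 551 RPKM in the other libraries. These are short transcripts, and across the 83 rows the log2 gene length and the change in miR-199a-3p had a Pearson r of 0.36, with r between -0.13 and 0.18 in the other 5 libraries. This is a description over genes of the same libraries. The Rpl39 rows named above are all among the 83, so this gene enters r more than once. No r with 1 row per symbol is given here. Of the 10 exit tunnel rows, all were above the control in miR-373-3p, with a median of 0.20.

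The other large subunit members gave the highest changes. Rpl18 was at 420 RPKM in cel-miR-67, 562 in miR-302d-3p, 550 in miR-373-3p, 549 in miR-1825, 527 in miR-33b*, 548 in miR-590-3p and 502 in miR-199a-3p. All 6 miRNA libraries were above the control, with changes from 0.26 to 0.42, the highest mean change (0.36) of the 83 rows. The control was thus the library that stood apart from the other 6. Rpl13a, whose mRNA gene hosts small nucleolar RNAs, was at 748 RPKM in cel-miR-67, 901 in miR-302d-3p, 961 in miR-373-3p, 1176 in miR-1825, 1032 in miR-33b*, 844 in miR-590-3p and 761 in miR-199a-3p. It spread evenly from no difference in miR-199a-3p (0.02) to 0.65 in miR-1825, a fold of 1.57 (counting interval 1.53 to 1.61).

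Rpl36 was at 58.4 RPKM in cel-miR-67 and between 60.3 RPKM (miR-199a-3p) and 77.2 RPKM (miR-1825) in the others. Rpl24, at the subunit interface, was at 412 RPKM in cel-miR-67, 393 RPKM in miR-199a-3p and 609 RPKM in miR-1825, a change of 0.56. Rpl15 was at 116 RPKM in cel-miR-67, 136 in miR-302d-3p, 114 in miR-373-3p, 182 in miR-1825, 158 in miR-33b*, 138 in miR-590-3p and 99.1 in miR-199a-3p. It was one of only 4 rows below the control in miR-373-3p, while its change in miR-1825 was 0.64. Other rows past 1.5-fold had few reads: the 366-base row of Rpl37, with 6 to 20 reads per library, reached 0.75 in miR-590-3p, and a 333-base row of Rpl35a, with 9 to 22 reads, reached 0.68 in miR-33b*.

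**Figure D3:**
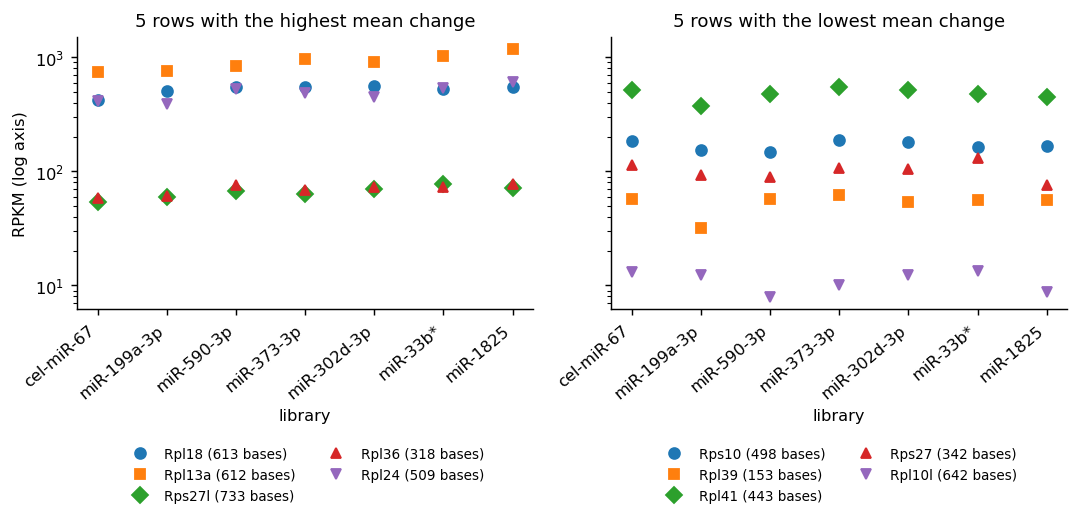
RPKM (log axis) in the 7 libraries of the 5 rows with the highest (left) and the 5 with the lowest (right) mean change over the 6 miRNA libraries, among rows with a mean of at least 10 RPKM; each point is 1 library. Rpl18 is lowest in cel-miR-67, and the 153-base row of Rpl39 is lowest in miR-199a-3p.

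In the 40S head, 13 of the 14 rows tested were below the control in miR-199a-3p (median -0.21) and all 14 above it in miR-373-3p (median 0.24). Rps19, the gene most often mutated in Diamond-Blackfan anaemia, was at 488 RPKM in cel-miR-67, 572 in miR-302d-3p, 613 in miR-373-3p, 525 in miR-1825, 534 in miR-33b*, 467 in miR-590-3p and 430 in miR-199a-3p. It was thus highest in miR-373-3p, next in miR-302d-3p, and below the control in miR-199a-3p and miR-590-3p. Rps16, chosen after its values were seen, set these libraries apart: it was at 70.8 RPKM in cel-miR-67, 72.6 RPKM in miR-373-3p, 54.6 RPKM in miR-302d-3p and 96.9 RPKM in miR-1825. It was the only row lower by at least 20% in miR-302d-3p (change of -0.37). Rps10 (498-base row) was at 183 RPKM in cel-miR-67 and between 149 RPKM (miR-590-3p) and 187 RPKM (miR-373-3p) in the others, with a mean change of -0.13.

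In the 40S body, Rps6 is the substrate of the S6 kinases that act below mTORC1. Rps6 was at 585 RPKM in cel-miR-67, 696 in miR-302d-3p, 748 in miR-373-3p, 781 in miR-1825, 694 in miR-33b*, 624 in miR-590-3p and 591 in miR-199a-3p. All 6 miRNA libraries were above the control, by 0.02 to 0.42. Above the control in all 6 were 8 rows (13.9% of all genes): Rpl4, Rpl13a, Rpl18, Rpl36, the 366-base row of Rpl37, Rps6, Rps7 and Rps27l. None was below it in all 6, against 13.4% of all genes.

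Rps2 was at 979 RPKM in cel-miR-67, 1310 in miR-302d-3p, 1140 in miR-373-3p, 1466 in miR-1825, 981 in miR-33b*, 1309 in miR-590-3p and 835 in miR-199a-3p. The libraries fell into a wide range, with miR-1825 1.497-fold above the control (counting interval 1.47 to 1.52) and miR-199a-3p below it. Rpsa went from 767 RPKM in cel-miR-67 to between 657 RPKM (miR-33b*) and 860 RPKM (miR-302d-3p).

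Gene copies gave the widest shifts within a pair. Rps27, a zinc-binding protein of the 40S body, and Rps27l, its close copy known as a p53 target, encode nearly the same protein. Rps27 was at 113 RPKM in cel-miR-67, 106 in miR-302d-3p, 106 in miR-373-3p, 75.3 in miR-1825, 130 in miR-33b*, 89.4 in miR-590-3p and 92.5 in miR-199a-3p. Rps27l was at 54.3 RPKM in cel-miR-67, 69.9 in miR-302d-3p, 63.3 in miR-373-3p, 71.3 in miR-1825, 77.3 in miR-33b*, 67.9 in miR-590-3p and 59.5 in miR-199a-3p. Rps27 was below the control in 5 libraries and Rps27l above it in all 6. The ratio of Rps27l to Rps27 in RPKM, which no scaling of libraries can move, was 0.479 in cel-miR-67 (counting interval 0.436 to 0.527). It was 0.660 in miR-302d-3p, 0.597 in miR-373-3p, 0.947 in miR-1825 (0.864 to 1.04), 0.595 in miR-33b*, 0.760 in miR-590-3p and 0.643 in miR-199a-3p. None of the 6 intervals reached that of the control.

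**Figure D4:**
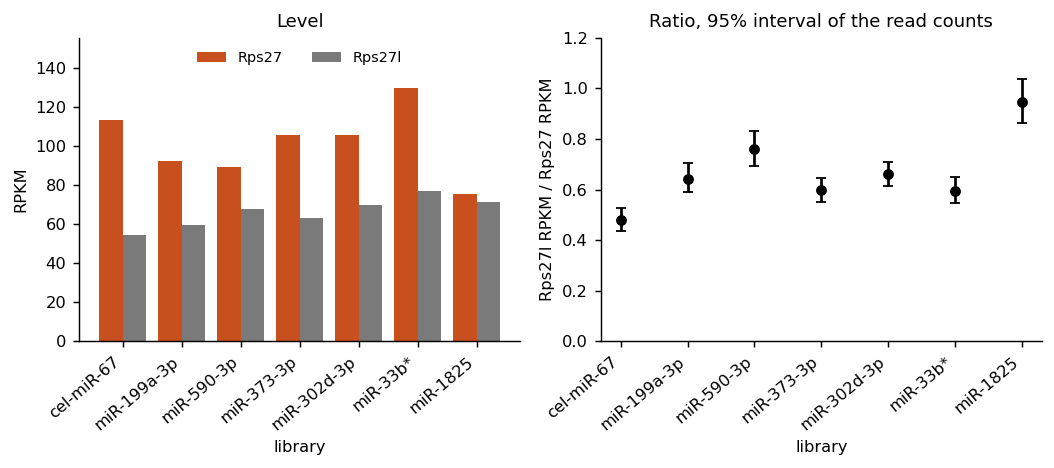
Left, RPKM of Rps27 and Rps27l in each library; right, their ratio with its 95% exact interval from the read counts (counting error only). The ratio is lowest in cel-miR-67 (0.479) and highest in miR-1825 (0.947).

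Rps4y2, a copy related to Rps4x, was at 9.63 RPKM in cel-miR-67, 14.6 in miR-302d-3p, 9.39 in miR-373-3p, 6.75 in miR-1825, 9.21 in miR-33b*, 9.64 in miR-590-3p and 14.6 in miR-199a-3p. Its ratio to Rps4x was 0.0220 in cel-miR-67 (counting interval 0.0191 to 0.0253), 0.0317 in miR-199a-3p (0.0285 to 0.0352) and 0.0181 in miR-1825 (0.0155 to 0.0211). Rps4x was at 437 RPKM in cel-miR-67 and between 372.7 RPKM (miR-1825) and 516 RPKM (miR-373-3p) in the others. Rpl10l, a copy of Rpl10 best known from the testis, was at 13.1 RPKM in cel-miR-67, 12.4 in miR-302d-3p, 10.1 in miR-373-3p, 8.72 in miR-1825, 13.5 in miR-33b*, 7.91 in miR-590-3p and 12.3 in miR-199a-3p. The low libraries were miR-590-3p (124 reads against 191 in cel-miR-67, change of -0.66) and miR-1825 (150 reads, -0.54).

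Rpl3l, the copy of Rpl3 that striated muscle is known to use after birth, was nearly absent. It had 2 to 9 reads and 0.0608 to 0.193 RPKM per library, against 489 to 580 RPKM for Rpl3. Rpl7l1, a nucleolar relative of Rpl7, was at 55.2 RPKM in cel-miR-67 against 102 RPKM for Rpl7. It had 927 reads there against 11880 for Rpl7, so the size of their ratio in RPKM rests on the gene models. That ratio was 0.542 in cel-miR-67, 0.618 in miR-302d-3p, 0.619 in miR-373-3p and 0.490 in miR-33b*. Rpl22l1 ranged from 90.9 to 129 RPKM and the longer row of Rpl36al from 33.7 to 54.1 RPKM, in both with the highest value in miR-373-3p. Rpl31l4 was at 22.8 RPKM in cel-miR-67 and 15.5 RPKM in miR-199a-3p, and its ratio to Rpl31 lay between 0.107 and 0.134. Rpl39l (0.667 to 1.31 RPKM), Rpl5l1 (2.53 to 3.98 RPKM) and Rps27l3 (2 to 6 reads) were low in every library. Rps19bp1 was at 22.8 RPKM in cel-miR-67, 31.0 RPKM in miR-302d-3p and 17.1 RPKM in miR-33b*, the only row lower by at least 20% there.

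Of the ribosomal proteins with other symbols, Fau (a ubiquitin-like protein fused to a 40S protein) had its highest change, 0.24, in miR-373-3p, and Gnb2l1, an older symbol of the 40S scaffold Rack1, lay between -0.07 and 0.22.

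Other TOP mRNAs moved in the same direction as the ribosomal protein genes in 4 libraries. The 21 rows of translation factors and other TOP genes had a median change of 0.15 in miR-302d-3p, 0.19 in miR-373-3p, 0.17 in miR-1825 and 0.26 in miR-33b*, and of 0.05 in miR-590-3p and -0.00 in miR-199a-3p. Higher by at least 25% were 5 of them in miR-302d-3p (23.8%, against 16.2% of all genes), 6 in miR-373-3p (28.6% against 14.2%), 3 in miR-1825 (14.3% against 15.5%) and 8 in miR-33b* (38.1% against 14.3%). The share was therefore below that of all genes in miR-1825 and above it in the other 3 of these libraries. Lower by at least 20% were 2 in miR-1825 (9.52% against 16.3%), both of them rows of Eif3h. In the other 3 libraries 0 were lower, against 16.9% of all genes in miR-302d-3p, 16.1% in miR-373-3p and 15.6% in miR-33b*. Npm1, a nucleolar chaperone, had the highest change, 0.77 in miR-302d-3p for its main row (239 RPKM in cel-miR-67) and 0.85 for a row near 1 RPKM. Eif3l, a subunit of the initiation factor eIF3, had the lowest, -0.55 in miR-199a-3p. Eef1a1, the main elongation factor, was at 2769 RPKM in cel-miR-67 with changes of 0.36 in miR-302d-3p and 0.34 in miR-373-3p.

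The 36 rows of ribosome biogenesis had medians of 0.13 in miR-302d-3p and 0.15 in miR-373-3p, but 0.04 in miR-1825 and -0.07 in miR-33b*. At most 4 rows were higher by at least 25% in any library, in miR-1825 (11.1%, against 15.5% of all genes), so the share lay below the background. These 4 included both rows of Nhp2. The extremes were Nolc1, a nucleolar phosphoprotein, at 0.51 in miR-302d-3p, and Wdr74, a factor of 60S assembly, at -0.38 in miR-33b*. The 13 rows of the RNA polymerase I machinery had medians between -0.11 and 0.02, with Taf1a at 0.33 in miR-1825 and Myc, the growth regulator listed with them, at -0.56 in miR-373-3p. Myc was below the control in all 6 miRNA libraries. Among 18 genes of mTORC1 and TOP control, with medians between -0.00 and 0.16, Mtor was highest, at 0.82 in miR-302d-3p and 0.26 to 0.75 in the others. Pdcd4, an inhibitor of translation initiation, was lowest, at -0.79 in miR-199a-3p. The 75 rows of mitochondrial ribosomal protein genes had medians of 0.02 in miR-302d-3p, 0.04 in miR-373-3p, -0.09 in miR-1825, -0.03 in miR-33b*, 0.04 in miR-590-3p and -0.20 in miR-199a-3p.

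**Figure D5:**
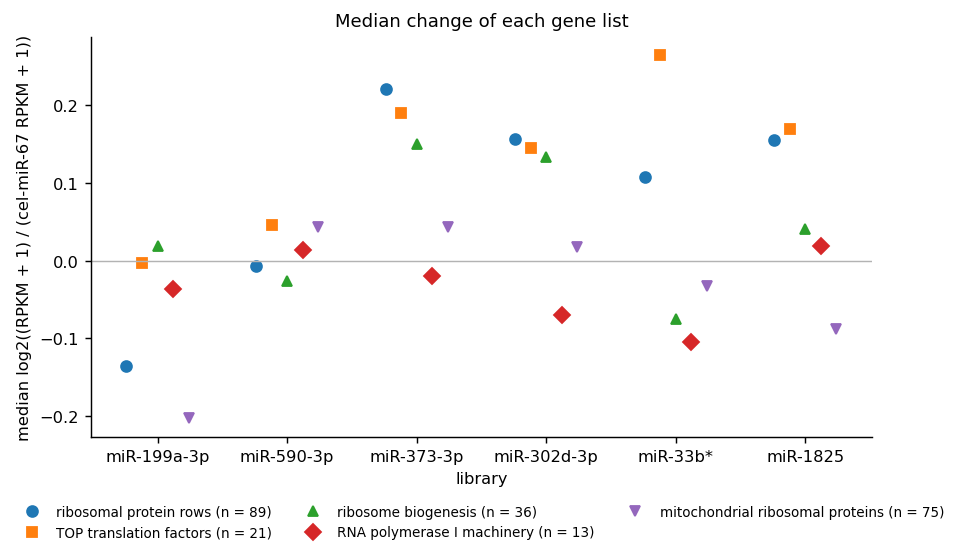
Median log2((RPKM + 1)/(cel-miR-67 RPKM + 1)) of 5 gene lists in each miRNA library, with the number of rows in the legend. Ribosomal protein rows and TOP translation factors lie above 0.10 in miR-302d-3p, miR-373-3p, miR-1825 and miR-33b*, while mitochondrial ribosomal protein rows lie between -0.09 and 0.04 there.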

How the data were processed

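The authors deposited RPKM for 17141 genes in 7 libraries and, per the file headers, RPKM ratios with cel-miR-67 as denominator. The submitters' processing notes list STAR 2.7, edgeR and the build Rnor_6.0 without saying what each was used for. For the annotation, strand setting and read counter, details were not given in the sources used here. Deposited ratios equalled the quotient of the RPKM within 1e-06 and were not used further. Gene lengths and library sizes that turn every value into whole reads were found for 100% of genes (tolerance 0.002 reads, up to 0.05 for genes with many reads). The sizes were 22446204 to 34708142, and the reads in listed genes 22616067 to 31963293, or 85.5% to 110% of the size, so that a further factor per library is part of the deposited values.

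Changes used a pseudocount of 1 RPKM, which understates those of low genes, and a mean of at least 1 RPKM. With 1 library per group nothing was tested, and the 95% exact (Clopper-Pearson) intervals cover counting error only. Genes were named by a rule: rows past 1.5-fold, the 5 highest and 5 lowest by mean change and by level, gene copies and their partners, Rpl5, Rpl11, the stalk genes, Rps6, Rps19, and the extremes of each other gene list. Members, lists and rule were chosen with earlier results of these data known. Python 3.11.15, numpy 2.4.6, pandas 2.3.3, scipy 1.17.1 and matplotlib 3.10.9 were used. Alternatives were other pseudocounts, filters, scalings, members, centres and references.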

Additional observations from a re-analysis of the deposited data

How the results depend on the processing

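With 1 library per group, no replicate could be left out, and differences between cultures are unknown. No paired analysis was possible because each group has 1 library. The median changes of the members reversed only in miR-199a-3p, under scaling to the same RPKM sum (0.34) and to the total listed reads (0.21), against -0.14 as deposited. The median in miR-590-3p, near 0 as deposited, also changed sign under scalings (0.02 and 0.01). Both scalings count the mitochondrial transcripts, whose share differed, and they moved the median of all genes too. Depth limits the rows with few reads, whose counting intervals are wide.

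With the same RPKM sum the other medians were 0.49 in miR-302d-3p, 0.47 in miR-373-3p, 0.32 in miR-1825 and 0.25 in miR-33b*. Higher by at least 25% were 79, 79, 45 and 33 rows in that order, and 50 in miR-199a-3p. The median of all genes was then itself 0.30, 0.22, 0.15 and 0.11 in that order. In miR-199a-3p it was 0.42, above the 0.34 of the members. Lower by at least 20% were 0 in miR-302d-3p, 0 in miR-373-3p, 0 in miR-33b*, 1 in miR-590-3p and 1 in miR-199a-3p. With total listed reads the medians were 0.41 in miR-302d-3p, 0.41 in miR-373-3p, 0.29 in miR-1825 and 0.22 in miR-33b*. Higher were 63, 71, 43 and 28 rows in that order, and 21 in miR-199a-3p. The median of all genes was 0.23, 0.17, 0.12 and 0.10 in that order, and 0.31 in miR-199a-3p. Lower were then 0 in miR-302d-3p, 0 in miR-373-3p, 0 in miR-33b* and 3 in miR-199a-3p. With the RPKM sum outside the mitochondrial genome miR-199a-3p had a median of -0.037 and 5 lower rows. For the alternatives here and below, the share of all genes past these limits is not given, so the counts have no background beside them.

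With the mean of the other 5 miRNA libraries as reference the medians were 0.076 in miR-302d-3p, 0.16 in miR-373-3p, 0.061 in miR-1825, 0.032 in miR-33b*, -0.13 in miR-590-3p and -0.29 in miR-199a-3p. Higher rows were then 3 in miR-302d-3p, 10 in miR-1825, 5 in miR-33b* and 1 in miR-590-3p, and lower rows 0 in miR-373-3p, 7 in miR-1825, 3 in miR-33b*, 8 in miR-590-3p and 37 in miR-199a-3p. TOP factors had medians of 0.10 in miR-373-3p, 0.017 in miR-1825, 0.090 in miR-33b*, -0.13 (reversed) in miR-590-3p and -0.15 in miR-199a-3p, the mTORC1 list had -0.022 (reversed) in miR-199a-3p and the p53 list 0.042 in miR-33b*. The cause of these shifts was not tested.

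Small counts moved as follows. With a pseudocount of 0.1, 4 rows were higher in miR-199a-3p and 5 lower in miR-590-3p. With a pseudocount of 5, 0 were lower in miR-373-3p and 2 in miR-1825. With no filter, 5 were lower in miR-590-3p and 2 each in miR-33b*, miR-302d-3p and miR-373-3p. With a mean of at least 10 RPKM, or standard members only, 1 was higher in miR-199a-3p, and standard members only also left 0 lower in miR-373-3p and miR-33b* and 2 in miR-1825. Rows past these limits relative to the set's median level became 1 in miR-302d-3p with a pseudocount of 5, and 2 in miR-373-3p with the summed RPKM or, chosen after seeing the data, the median change as centre. With 1 row per symbol, also chosen after seeing the data, they were 6 in miR-302d-3p, 2 in miR-373-3p and 4 in miR-199a-3p.

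Shares of reads outside the mitochondrial genome were 2.93% in cel-miR-67, 3.34% in miR-302d-3p, 3.45% in miR-373-3p, 3.40% in miR-1825, 3.35% in miR-33b*, 3.02% in miR-590-3p and 2.83% in miR-199a-3p. In the same order they were 2.98%, 3.41%, 3.52%, 3.47%, 3.42%, 3.08% and 2.88% of protein-coding reads outside it. With the 9 rows set aside by symbol or gene type they were 1.77%, 2.37%, 2.36%, 2.24%, 2.13%, 1.81% and 2.09% of all reads, and with 1 row per symbol 1.68%, 2.26%, 2.24%, 2.14%, 2.03%, 1.72% and 2.00%.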
